A study of Mus musculus with 8 samples.

Results

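Imprinted genes are expressed mainly from the maternal or mainly from the paternal copy, and the copy to be silenced is marked by DNA methylation inherited from the egg or the sperm. The 40 imprinted genes described here, of 49997 genes in the RefSeq table of the mouse build GRCm38.p6, were taken from a named list, and a stretch of open chromatin was given to a gene when it overlapped the gene body extended by 5 kb on both sides. The assay, ATAC-seq, finds open chromatin through a transposase that cuts accessible DNA and leaves sequencing adapters there. Peaks of 8 deposited lists, 1 per library, were merged into 175276 regions, of which 295 belonged to the 40 genes.

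The cells were naive CD4 T cells sorted from mouse spleen and activated through CD3 and CD28 with antibodies and kept for 48 h with TGF-β at 20 ng/mL, a cytokine that directs such cells towards regulatory T cells. There were 4 kinds of culture, with 2 libraries each and 90000 cells per library: control cells with TGF-β alone, cDKO cells with TGF-β alone, control cells with TGF-β and 100 U of IL-2, and cDKO cells with TGF-β and 100 U of IL-2. cDKO stands for a conditional double knockout of Tet1 and Tet3, the genes of enzymes that oxidise methylated cytosine. The Cre line that deleted them, the full genotype of the controls and the age of the mice are unknown from the sources used here. The design asks what loss of both enzymes does to open chromatin in these cultures and whether added IL-2 matters. The replicates are called biological, but the animals behind them are not named, so every p-value measures only the spread between these libraries.

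At an imprinted cluster the inherited mark sits on a control region, often the start of one gene of the cluster. Methylation laid down in the egg usually covers a start, which is then used on the paternal copy alone, while methylation laid down in sperm lies between genes or upstream of one. After fertilisation the mark is kept by DNA methyltransferase and by zinc finger proteins such as ZFP57, which binds a methylated TGCCGC sequence. TET enzymes take part in erasing the marks in germ cells, and in other cells the marks are meant to persist.

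Start windows of 6 members show how different the starts of imprinted genes are in sequence and in openness. Each is 300 bases of RefSeq GRCm38.p6, from 250 bases before a start to 50 after it, 5′ to 3′ on the gene's strand, with CpG dinucleotides, the sites of methylation, in capitals. The Gnas, Inpp5f and Plagl1 windows belong to genes with a region that differed between groups below. Mest, Nap1l5 and Grb10 are shown because these CpG-rich starts were listed in few libraries or none.
Gnas: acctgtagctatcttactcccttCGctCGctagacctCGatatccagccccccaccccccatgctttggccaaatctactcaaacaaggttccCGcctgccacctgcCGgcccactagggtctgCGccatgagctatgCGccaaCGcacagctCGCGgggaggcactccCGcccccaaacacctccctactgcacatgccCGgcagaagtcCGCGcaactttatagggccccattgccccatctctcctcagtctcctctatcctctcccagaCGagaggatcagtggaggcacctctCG
Inpp5f: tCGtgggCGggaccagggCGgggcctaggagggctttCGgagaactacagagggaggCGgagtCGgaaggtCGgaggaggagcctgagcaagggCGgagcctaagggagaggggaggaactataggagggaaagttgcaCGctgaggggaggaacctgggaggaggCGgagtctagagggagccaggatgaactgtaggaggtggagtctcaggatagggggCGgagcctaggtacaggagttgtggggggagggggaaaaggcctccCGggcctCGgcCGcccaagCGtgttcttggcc
Plagl1: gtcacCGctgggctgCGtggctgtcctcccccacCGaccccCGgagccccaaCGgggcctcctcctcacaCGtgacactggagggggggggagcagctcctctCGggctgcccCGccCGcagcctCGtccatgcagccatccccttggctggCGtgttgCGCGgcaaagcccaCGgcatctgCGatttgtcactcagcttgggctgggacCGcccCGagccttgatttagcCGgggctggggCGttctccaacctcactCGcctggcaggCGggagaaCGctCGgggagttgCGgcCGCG
Mest: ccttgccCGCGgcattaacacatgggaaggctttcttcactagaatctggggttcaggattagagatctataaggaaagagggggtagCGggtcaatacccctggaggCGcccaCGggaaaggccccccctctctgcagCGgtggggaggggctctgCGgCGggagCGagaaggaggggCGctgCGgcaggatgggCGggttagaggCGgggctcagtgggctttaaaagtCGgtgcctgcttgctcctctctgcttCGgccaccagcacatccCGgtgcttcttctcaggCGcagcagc
Nap1l5: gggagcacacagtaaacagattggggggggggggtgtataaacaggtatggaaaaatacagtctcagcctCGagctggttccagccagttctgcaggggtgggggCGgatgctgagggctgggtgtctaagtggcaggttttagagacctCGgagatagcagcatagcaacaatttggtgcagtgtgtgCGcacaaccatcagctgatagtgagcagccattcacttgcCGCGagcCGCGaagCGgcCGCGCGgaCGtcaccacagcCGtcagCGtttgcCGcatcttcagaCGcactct
Grb10: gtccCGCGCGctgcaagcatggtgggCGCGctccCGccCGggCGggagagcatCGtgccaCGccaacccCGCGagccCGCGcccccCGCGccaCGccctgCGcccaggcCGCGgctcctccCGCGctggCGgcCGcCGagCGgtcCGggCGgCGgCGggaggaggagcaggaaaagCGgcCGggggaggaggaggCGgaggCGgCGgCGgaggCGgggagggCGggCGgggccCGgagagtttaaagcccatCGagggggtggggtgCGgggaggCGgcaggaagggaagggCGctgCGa

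The Gnas window (chr2:174284070-174284369, plus strand) is the furthest upstream annotated start of the gene and held 16 CpG. Inpp5f (chr7:128611115-128611414, plus strand) held 15 CpG and Plagl1 (chr10:13090582-13090881, plus strand) 26. Mest (chr6:30737800-30738099, plus strand) held 17, Nap1l5 (chr6:58907077-58907376, minus strand) 17 and Grb10 (chr11:12037371-12037670, minus strand) 45. Counting both strands, TGCCGC was found 2 times in the Mest window, 2 times in Nap1l5, 1 time in Grb10, 1 time in Plagl1 and not in the windows of Gnas or Inpp5f. A match is a description of the letters and not of binding.

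The deposited lists held between 65811 and 145979 peaks. Depth is not stated in the lists and the numbers of peaks differed, so the 65811 peaks of highest −log10 p were taken from each library, and "listed" means listed there unless the deposited list is named. Rank 1 is the strongest peak of a library. All 7 CD4 T cell markers examined, among them Cd3e, Cd4 and Cd28, had a region listed in all 8 libraries. So had 12 of 19 markers of CD8 T, NK, B, myeloid and erythroid cells. Among these were Klrb1c and Klre1 of NK cells and Cd79a and Pax5 of B cells. Ncr1 of NK cells and Ms4a1 of B cells had no region in any library. A region near a gene may serve a neighbour, so these counts describe regions and not cell numbers.

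In the equal-number lists, 169 of the 95899 regions lay at imprinted genes, and 34 of the 40 genes had at least 1. Control libraries without IL-2 listed 107 and 119 of them, and cDKO libraries without IL-2 127 and 124. With IL-2 the control libraries listed 118 and 123 and the cDKO libraries 118 and 110. The ranges of control and cDKO libraries overlapped. Regions listed in all 8 libraries numbered 74, or 43.8% of those at imprinted genes, beside 42.4% over all regions. Their median rank was 20991, beside 21320 over all regions listed in all 8, and their median width 662 bp beside 658 bp. In number, strength and width, the open regions of imprinted genes were thus close to those of the genome at large. Per gene, 85% of the 40 members and 72.2% of the 34614 protein-coding and lncRNA genes had a listed region, at medians of 6.56 and 6.33 regions per 100 kb and with median windows of 48.8 and 22.8 kb.

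**Figure D1:**
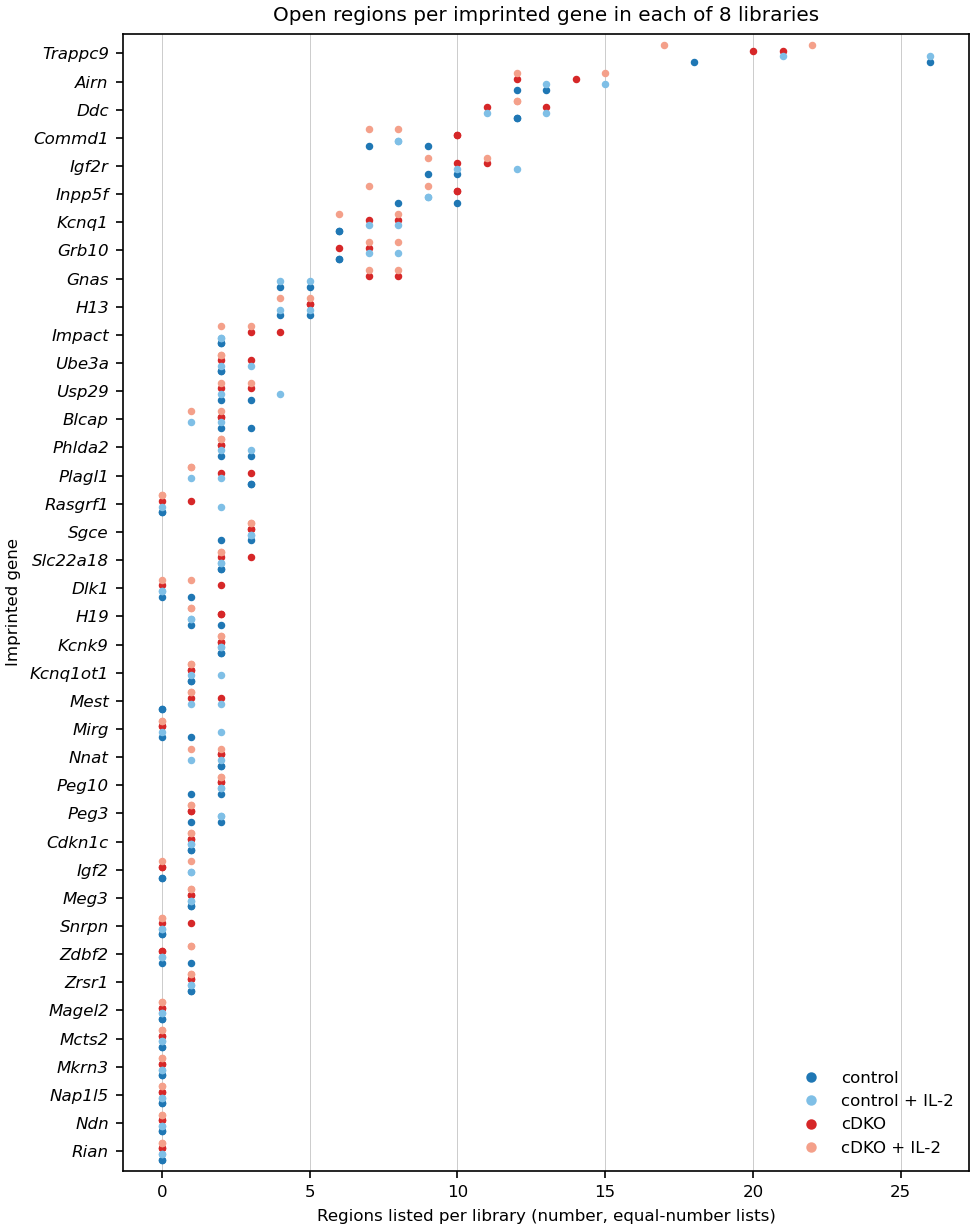
Number of regions listed within 5 kb of each imprinted gene in the equal-number lists (horizontal axis), with 1 point per library coloured by group (points of equal value within a group coincide). Trappc9 had 17 to 26 regions per library, 6 genes had none in any library, and Gnas is the gene whose 4 cDKO libraries (7 or 8 regions) all sit above its 4 control libraries (4 or 5).

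RefSeq gave 48 start windows for 32 of the members, and 14 of these (29.2%) overlapped a region listed in all 8 libraries, beside 38.2% of 32851 windows of all genes. CpG-rich starts are usually open, and of windows with at least 16 CpG, 82.7% over all genes were listed in every library. At imprinted genes it was 10 of 22 such windows, or 45.5%, and 6 of the 22 were listed in none. Among windows with 6 to 15 CpG the shares were 18.8% (3 of 16) and 35.7%, and among windows with 0 to 5 CpG they were 10% (1 of 10) and 5.77%, in the other order. Windows of 1 gene can overlap and members were chosen by name, so these shares are given as a description. The TGCCGC sequence was in 12 of 48 member windows (25%) and in 11.6% of all windows, and within CpG-rich windows in 36.4% and 25.7%.

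**Figure D2:**
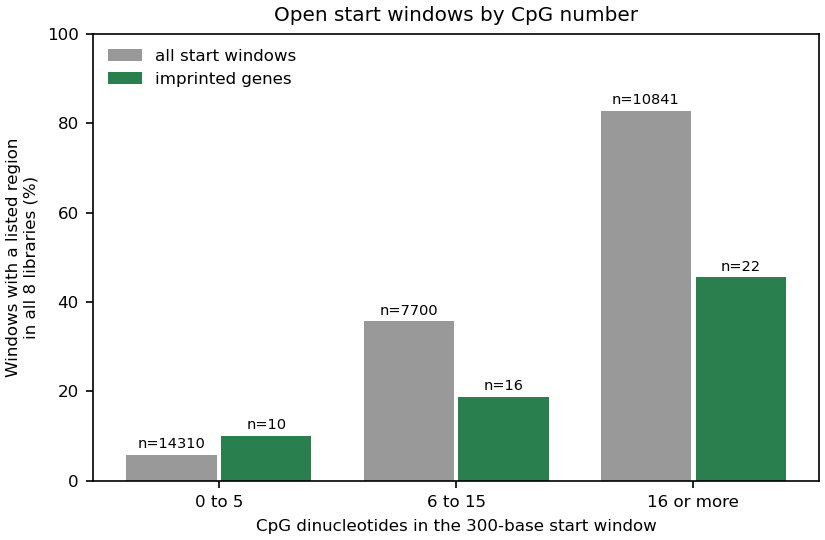
Share of 300-base start windows that overlap a region listed in all 8 libraries (vertical axis, percent), by number of CpG dinucleotides in the window, for all genes (grey) and imprinted genes (green), with the number of windows above each bar. In the class of 16 or more CpG, imprinted genes stand at 45.5% and all genes at 82.7%.

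Genes with a control region methylated in the egg made up 19 of the 40 members, and 15 of them had a region listed in all 8 libraries. The annotated start of Inpp5f, which encodes an inositol phosphatase, was among the strongest peaks of every library (median rank 570). A region 76.9 kb downstream, inside the gene, was also listed in all 8, at rank 12338 to 31770 (chromosome 7, 128687889 to 128688699). Methylation was not measured, so which region of Inpp5f carries the mark is unknown from these data. The start of Kcnq1ot1, the long noncoding RNA that silences its cluster on the paternal copy, ranked from 2877 to 7676 (chromosome 7, 143295505 to 143297000, median rank 4404). Airn, the noncoding RNA that silences Igf2r and starts inside that gene, had its start region between rank 16903 and 25693 (chromosome 17, 12741197 to 12742017). The Igf2r start, that of a receptor that clears insulin-like growth factor 2, ranked from 12915 to 25572 (12768746 to 12770001). Both starts, which are used on opposite parental copies, were thus open in every library. The start of Plagl1, a zinc finger factor, ranked from 8950 to 21884 (chromosome 10, 13090451 to 13091258), and RefSeq's Hymai overlaps the same region. Zrsr1, a retrocopy inside Commd1, shared a start region with one Commd1 transcript at rank 10122 to 20665 (chromosome 11, 22971847 to 22973148).

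Trappc9, a trafficking gene, held the most regions, 30, of which 13 were listed in all 8 libraries. Its strongest, at the high-coordinate end of the gene, ranked from 128 to 2051 (chromosome 15, 73060376 to 73061560). Another, at rank 18761 to 27862 (72809059 to 72810948), lay on Peg13, a noncoding RNA transcribed from the paternal copy inside the gene. Impact, a regulator of translation, had a region at rank 887 to 7138 (chromosome 18, 12973114 to 12974560). Sgce, which encodes a membrane glycoprotein, had its strongest region at a median rank of 2748. Peg10 (4749073 to 4749453 on chromosome 6) and Peg3 with Usp29 (6729294 to 6729804 on chromosome 7) had only weak regions in all 8, at median ranks of 36430 and 39265.

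Several starts of genes with a control region methylated in the egg were listed in few libraries or none. A region over both the Peg3 and Usp29 starts was listed in 3 libraries, the second control library without IL-2 and both controls with IL-2. The Mest start region was listed in 3 of 8, spread over 3 groups. All 8 deposited lists held that region, at rank 51163 to 108557. Nnat had no region over its start in the equal-number lists, and its 1 region in all 8 was that of the neighbouring Blcap start, at rank 6789 to 21073. Grb10, a growth inhibitor, had 5 regions listed in all 8, but the CpG-rich start printed above was in none of the equal-number lists. Of 8 deposited lists 7 held that start at ranks of 73453 to 130055. A region 1.89 kb downstream of the other annotated Grb10 start was listed in all 8, at rank 29686 to 51716 (chromosome 11, 12025588 to 12026579). Which part of Grb10 carries the mark was not measured. Snrpn, the splicing factor gene whose start is the control region of the Prader-Willi cluster, had 1 listed region in 1 library. Nap1l5 and Mcts2, which are retrocopies within other genes, had none, and their few deposited peaks ranked from 78196 to 135348.

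Genes beside a region methylated on the paternal copy numbered 8, and 2 of them, H19 and Meg3, had a region listed in all 8 libraries. The H19 region lay 1.97 kb beyond the high-coordinate end of this noncoding RNA gene, the side of its start, where its control region is known to lie (chromosome 7, 142580120 to 142580922). It was weak, at rank 37204 to 58822. The Meg3 region lay 1.97 kb downstream of the start of that noncoding RNA and ranked from 13876 to 32669 (chromosome 12, 109542765 to 109543169). Igf2, the growth factor gene, had a start region listed at rank 46020 and 42771 in the control libraries with IL-2, at 63951 in 1 cDKO library with IL-2 and in no library without IL-2. All 8 deposited lists held the Igf2 start region. Without IL-2 they had it at rank 137863 and 72094 in control and 75251 and 73016 in cDKO libraries, so it was not absent. The second cDKO library with IL-2 had it at rank 72916, so libraries with and without IL-2 overlapped. Among control libraries alone it was weaker without IL-2. Dlk1, Mirg, Rasgrf1 and Zdbf2 had regions in some libraries only, and Rian, the host of small nucleolar RNAs, in none.

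The remaining 13 genes are governed from a control region elsewhere or host one, and 10 had a region in all 8. The start of Commd1 (median rank 3234) and that of Ube3a, a ubiquitin ligase gene (median rank 4738), were strong throughout. Cdkn1c, the cell cycle inhibitor governed by Kcnq1ot1, had 1 region per library, described below. Ddc, the decarboxylase gene beside Grb10, had 15 regions, 8 of them in all 8 libraries, and none over its 2 annotated starts. H13, the host gene of Mcts2, had its strongest region at a median rank of 10534. Kcnk9, a potassium channel gene, had the same 2 regions in each library, and Phlda2 and Slc22a18 had weak ones. Ndn, Magel2 and Mkrn3, neighbours in the Prader-Willi cluster, had none, and Mkrn3 had no peak in any deposited list.

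Genotype was compared first by presence: a region was called when all 4 libraries of one genotype listed it and none of the other did. Of the 169 regions at imprinted genes, 1 was higher in cDKO (0.592%, beside 0.706% of all 95899 regions) and 1 was lower (0.592%, beside 1.12%). Both shares were below the background, so presence calls set imprinted genes apart in neither direction.

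The region called higher was the first Gnas start, printed above (chromosome 2, 174284071 to 174284450). This start serves the transcripts of the secreted Nesp protein, and the noncoding RNA Gnasas1 overlaps it. cDKO libraries listed it at rank 36179 and 52545 without IL-2 and at 52075 and 38724 with IL-2, and no control library listed it. In the deposited lists the controls held it at rank 70092, 74757 and 88487, and the second control library with IL-2, the shortest list, did not hold it. In bulk cultures, a region open in fewer cells and one less open in each cell cannot be told apart, and the lists do not separate the parental copies. The call rested on a shift in rank across the list end and not on absence of the peak. With the full deposited lists it was lost, and cDKO exceeded control by 1 listing library.

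**Figure D3:**
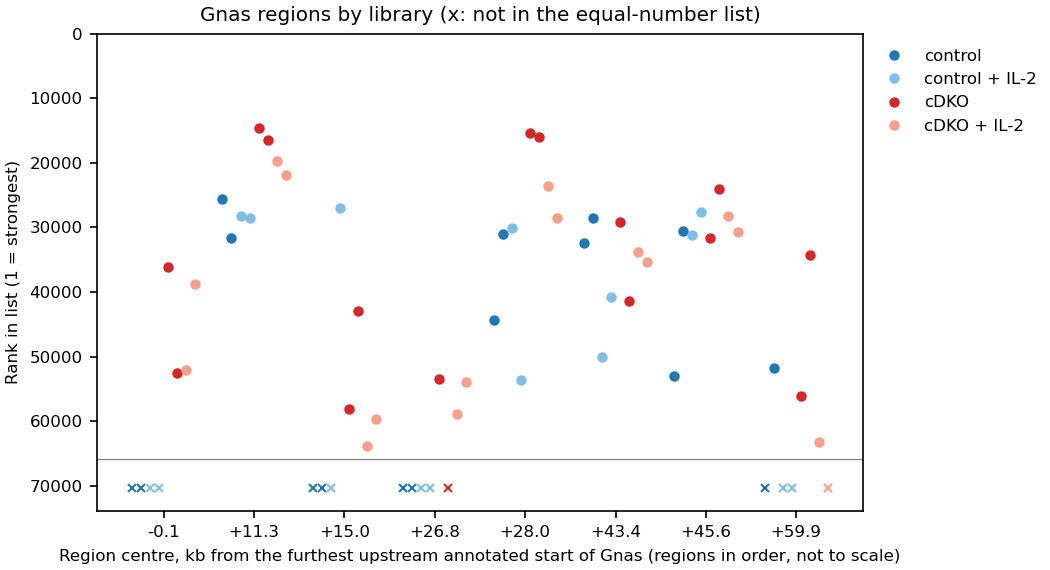
Rank (vertical axis, 1 strongest, at the top) of the 8 listed regions of Gnas in each library, in order along the gene and labelled with the distance of the region centre from the furthest upstream annotated start in kb, with crosses below the line for libraries that did not list the region. At the first position all 4 cDKO libraries and no control library listed the region.

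Gnas, which encodes the stimulatory G protein alpha subunit and several transcripts of opposite imprinting, was also the gene with a change in the number of listed regions. Control libraries listed 4 and 5 regions without IL-2 and 4 and 5 with IL-2, and cDKO libraries listed 8 and 7 in each condition. The groups did not overlap. Of 34 members this held for 1 gene in the direction of cDKO (2.94%), beside 1.27% of 24977 genes, and for no member in the other direction, beside 1.48%. This count was chosen after the values were seen. In the deposited lists Gnas had 13, 6, 10 and 5 regions in control and 9, 9, 8 and 13 in cDKO libraries, which overlap.

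Another 2 Gnas regions were listed in all 8 libraries with ranks that did not overlap between genotypes. The region 11.3 kb downstream of the first start, on Gnasas1 (174295230 to 174295957), ranked 25641, 31574, 28216 and 28529 in control and 14608, 16476, 19694 and 21946 in cDKO libraries. The region 15.4 kb upstream of the nearest later start (174312163 to 174312525) ranked 44385, 30947, 30026 and 53650 in control and 15340, 15977, 23618 and 28527 in cDKO libraries. All 4 cDKO libraries were stronger at both. In the limma model described next their log2 differences were 0.66 (SE 0.195, adjusted p = 0.09) and 0.94 (SE 0.249, adjusted p = 0.0685), short of the threshold of 0.05. The regions at the later Gnas starts, which include that of the G protein transcript itself, differed by 0.10 (174327306 to 174328045) and 0.27 (174328952 to 174330931), with limma adjusted p of 0.841 and 0.561.

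The region called lower lay inside Inpp5f, 61.3 kb downstream of its start (chromosome 7, 128672375 to 128672961). Control libraries listed it at rank 41355 and 43364 without IL-2 and at 36369 and 44077 with IL-2, and no cDKO library listed it. The deposited cDKO lists held it at rank 70560, 93596, 72399 and 76706, so it was a weaker peak there and not an absent one. With the full deposited lists every library held it and the call was lost.

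Strength was then compared by limma on −log2 of the rank, so that a positive difference means stronger in cDKO, over the 40694 regions listed in all 8 libraries. Of 74 regions at imprinted genes, 2 passed an adjusted p of 0.05 (2.7%, beside 3.78% of all regions), both stronger in cDKO, beside 1.58% of all regions stronger and 2.2% weaker.

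At the Inpp5f start (128610884 to 128612011) the ranks were 644 and 1235 in control and 112 and 445 in cDKO libraries without IL-2, and 1814 and 3401 in control and 458 and 496 in cDKO libraries with IL-2. Every cDKO library was stronger than every control library. Whether the parental mark of the gene lies at this start was not measured. The log2 difference was 2.19 (SE 0.43, limma adjusted p = 0.0307). The fold over background at this start, the authors' value, was 14.6, 13.5, 13.3 and 11.4 in control and 15, 13.9, 14.8 and 14.2 in cDKO libraries, which overlap. When peaks were ranked by that fold the difference was 0.06 (limma adjusted p = 0.955), so it was present in −log10 p and not in fold. The call was lost when any of 6 libraries was left out. Leaving out any 1 library also left fewer of all regions past the threshold, so this loss is not particular to Inpp5f. Among libraries without IL-2, limma's adjusted p was 0.0714 without the second control library and 0.0806 and 0.0503 without the first and the second cDKO library. Among libraries with IL-2, it was 0.0631 without the second control library and 0.105 and 0.0827 without the first and the second cDKO library by limma.

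At a region inside Igf2r, 4.64 kb downstream of the Airn start (chromosome 17, 12745788 to 12746114), the ranks were 29564 and 25059 in control and 16952 and 12576 in cDKO libraries without IL-2. With IL-2 they were 41102 and 49300 in control and 20749 and 25017 in cDKO libraries. The genotypes did not overlap, and the log2 difference was 0.94 (SE 0.211, limma adjusted p = 0.044). The adjusted p by limma was 0.0622 with the replicate number as a block, 0.323 with ranking by fold and between 0.0623 and 0.162 when any of the 8 libraries was left out. The start regions of Airn and Igf2r themselves differed by 0.24 and 0.09 (limma adjusted p = 0.557 and 0.897).

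Short of the threshold were Cdkn1c and Ddc among others. The Cdkn1c region (143460876 to 143461568) ranked 14668, 17390, 10534 and 13288 in control and 7953, 7254, 6718 and 8859 in cDKO libraries, with no overlap and a log2 difference of 0.84 (SE 0.209, limma adjusted p = 0.0566). A Ddc region 22.4 kb downstream of a start (chromosome 11, 11867445 to 11868631) ranked 15967, 8233, 7299 and 16064 in control and 4719, 4723, 6692 and 5516 in cDKO libraries (log2 1.06, SE 0.308, limma adjusted p = 0.0878). The Impact region was the one with the largest difference in the other direction. Its ranks were 5777, 887, 4784 and 1710 in control and 6741, 5619, 5454 and 7138 in cDKO libraries, which overlap (log2 −1.28, SE 0.541, limma adjusted p = 0.212).

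Counting regions by overlap alone, a count added after the data were seen, 13 of 74 had all 4 cDKO libraries stronger than all 4 controls (17.6%, beside 6.15% of all regions), and 3 had them weaker (4.05%, beside 5.72%). The 13 regions lay at 10 genes: 3 at Ddc, 2 at Gnas, 2 at Inpp5f, and 1 each at Grb10, Trappc9, H13, H19, Cdkn1c and the overlapping pair Igf2r and Airn, so several share a locus. The second Inpp5f region (128687889 to 128688699) ranked 30363, 22511, 31770 and 19368 in control and 15254, 12338, 16528 and 16636 in cDKO libraries (limma adjusted p = 0.104). The H19 region ranked 58822, 48591, 56658 and 50465 in control and 39624, 47680, 37204 and 45466 in cDKO libraries (limma adjusted p = 0.378). The weaker regions lay at Trappc9 (73006307 to 73007046), Airn (12782876 to 12783902) and Phlda2 with Slc22a18 (143501650 to 143502305). With ranking by fold the stronger count was 5 of 70 (7.14%, beside 4.72%) and the weaker count 4 of 70 (5.71%, beside 3.41%), so the excess over the background depended on the measure used for ranking. The median log2 difference was 0.16 over the 74 regions and 0.04 over all regions, and 46 of 74 (62.2%) were above 0, beside 54.3%.

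**Figure D4:**
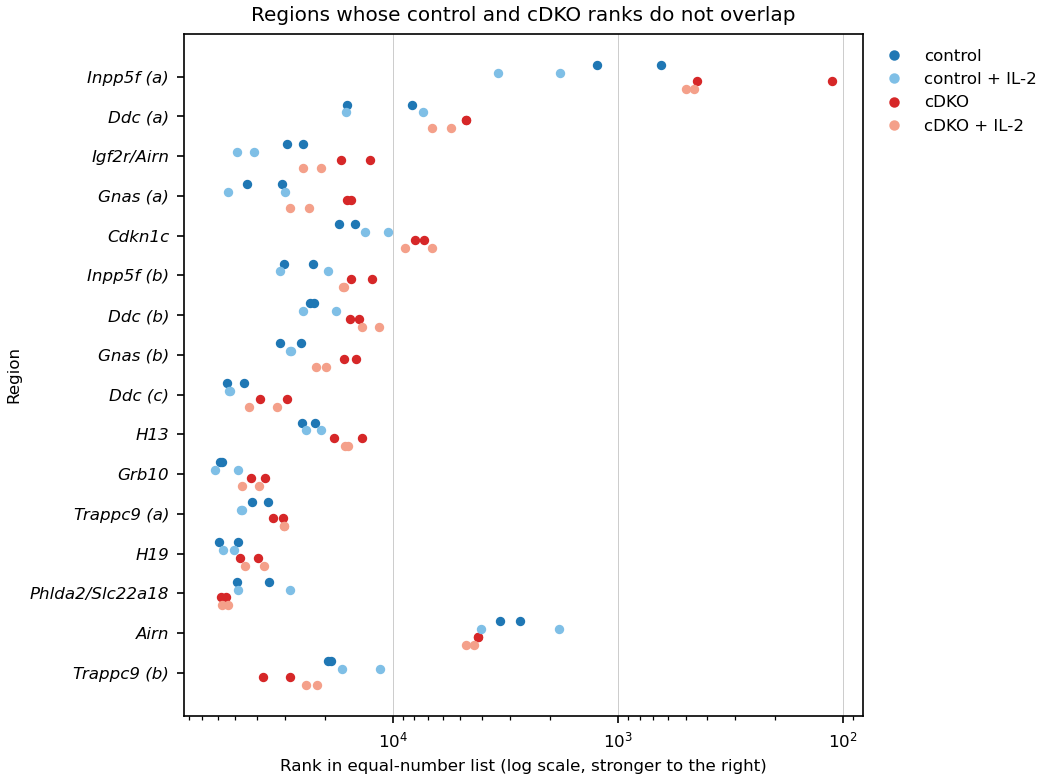
Rank of the 16 regions of imprinted genes whose control and cDKO ranks did not overlap (horizontal axis, log scale, stronger to the right), with 1 point per library, ordered from the largest log2 difference at the top. The Inpp5f start, marked (a), has cDKO ranks of 112 to 496 and control ranks of 644 to 3401, and the 3 regions at the bottom are weaker in cDKO.

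**Figure D5:**
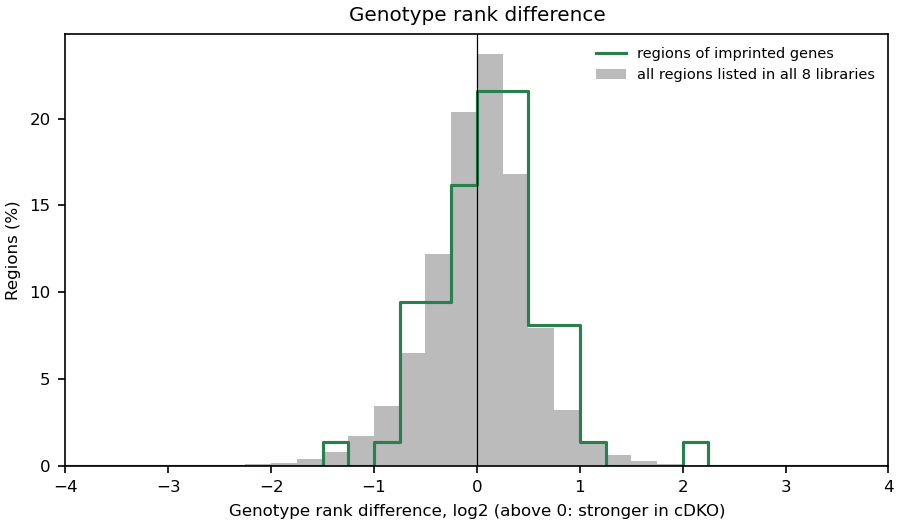
Share of regions (vertical axis, percent) by genotype rank difference (horizontal axis, log2, above 0 stronger in cDKO) for all 40694 regions listed in all 8 libraries (grey bars) and the 74 of imprinted genes (green line). The green line has a median of 0.16 beside 0.04 for the grey bars, spans a narrower range than they do, and ends at the right with the Inpp5f start at 2.19.

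IL-2 was compared in the same ways. By presence, no region of an imprinted gene was higher with IL-2, beside 0.348% of all regions, and 1 was lower (0.592%, beside 0.229%). It lay 3.41 kb upstream of the Plagl1 start (chromosome 10, 13087313 to 13087527), outside the start region itself. Libraries without IL-2 listed it near the end of the list, at rank 59876 and 62105 in control and 57075 and 64563 in cDKO. With IL-2 no library listed it, and the deposited lists held it at rank 89149 in 1 control library and 79552 and 68042 in the cDKO libraries. The Plagl1 start moved the other way without passing the test (log2 0.70, limma adjusted p = 0.262).

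By limma, 0 of 74 regions passed for IL-2, beside 0.246% of all regions (0.172% stronger and 0.0737% weaker), and 8 of 74 had an unadjusted p under 0.05, beside 12.9% of all regions. The largest differences were at the Inpp5f start (log2 −1.29, adjusted p = 0.245), inside Igf2r (12715024 to 12715590, log2 −0.96, adjusted p = 0.172), inside Airn (12791441 to 12791991, log2 −0.89, adjusted p = 0.273), at another Inpp5f region (128633065 to 128633684, log2 −0.85, adjusted p = 0.21) and inside Grb10 (11960768 to 11961589, log2 0.80, adjusted p = 0.163), all by limma. At the Grb10 region the ranks were 19969 and 22289 in control and 31960 and 21819 in cDKO libraries without IL-2, and 9080 and 9911 in control and 22123 and 17157 in cDKO libraries with IL-2. The control libraries with IL-2 were the strongest. No member had a number of listed regions that set the libraries with IL-2 apart, beside 0.532% of genes with more and 0.424% with fewer. By overlap of ranks, no region was stronger with IL-2 (beside 2.77% of all) and 2 were weaker (2.7%, beside 3.01%).

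Within single conditions, where 2 libraries face 2 and no region can be tested by presence, more regions were called. Without IL-2, 13 of 152 were higher in cDKO (8.55%, beside 4.42% of all) and 2 lower (1.32%, beside 4.81%). The 13 lay at 8 genes, among them Kcnq1 (143106899 to 143107494, cDKO rank 39815 and 31830) and Mest (30736888 to 30737524, cDKO rank 51943 and 53470), 0.84 kb upstream of the CpG-rich start. With IL-2, 4 of 154 were higher (2.6%, beside 4.05%) and 6 lower (3.9%, beside 4.46%). The difference between the conditions was not tested over the list. In the full deposited lists the counts were 5 higher and 6 lower without IL-2, and 13 higher and 3 lower with IL-2. Counted over all regions of the full lists, 2671 were higher in cDKO and 6835 lower when IL-2 was not added, and 6350 were higher and 1633 lower when it was, so the balance of all regions moved with list length in the same directions. No member region was called in opposite directions in the 2 conditions.

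IL-2 in control cells gave 7 of 153 regions higher (4.58%, beside 2.71%), the Igf2 start first among them, and 2 lower (1.31%, beside 2.84%). In cDKO cells it gave 1 of 147 higher, at a Zdbf2 start (0.68%, beside 3.3%), and 6 lower (4.08%, beside 3.48%). By limma none of the 74 regions passed in any single condition or for the interaction of genotype and IL-2. Beside these counts, 0.00246% of all regions passed for genotype without IL-2, and 0% passed for genotype with IL-2, for IL-2 in either genotype and for the interaction. Unadjusted p under 0.05 by limma was reached by 10 of 74 member regions for genotype without IL-2 (beside 13.3% of all regions) and 8 with IL-2 (beside 14.3%). It was reached by 8 for IL-2 in control (beside 10.2%), 3 for IL-2 in cDKO (beside 7.97%) and 0 for the interaction (beside 3.93%).

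Further gene lists were read in the same way. Of 27 other imprinted genes 25 matched the table, with 96 listed regions, of which 3 were higher in cDKO, at Slc22a3, Asb4 and Atp10a, and 2 lower, at Atp10a and at Tnfrsf23 with Osbpl5, beside 0.706% and 1.12% of all regions. By limma, 1 of the 43 regions of this list in all 8 libraries was stronger in cDKO, beside 1.58% of all regions. None was weaker, beside 2.2%. The stronger region was a further one at Atp10a, a flippase gene near Ube3a (chromosome 7, 58668006 to 58669017). It ranked 20433, 16044, 27665 and 25611 in cDKO, against 52661, 30049, 50225 and 51281 in control (log2 1.03, SE 0.235, limma adjusted p = 0.0456). Of 15 genes that set or keep imprints, all matched, with 77 regions. Of these 1 was higher in cDKO, at Hells, and 2 were lower, at Hells and Dnmt1, beside the same 0.706% and 1.12%. Counts this small describe single regions and not the lists. The Dnmt1 region, at the gene of the maintenance methyltransferase (chromosome 9, 20943427 to 20943769), was listed at rank 43153, 51938, 40619 and 55795 in control and in no cDKO library. Zfp57 had 1 to 3 regions per library, and Ctcf, Trim28, Uhrf1 and Dnmt3a had regions in all 8.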

How the data were processed

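ATAC-seq peak lists of 8 libraries were used, with 1 deposited for each. Named in the submitters' processing notes, without roles, are HOMER 4.11.1, MACS2 2.2.7.1, Bowtie2 2.4.1, Trimmomatic 0.39, DiffBind 2.10.0, SAMtools 1.3.1, Picard and ChIPseeker 1.18.0, and the mouse build GRCm38 or mm10. How reads were shifted, how duplicates were treated and how peaks were called is unknown from the sources used here. Each deposited peak carries the authors' fold over background (a ratio), −log10 p and −log10 q, with q up to 0.05. These are the peak's own values, and served for ranking and filtering inside each list alone. Read depth is not given, so no interval or floor was computed.

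Peaks overlapping by at least 1 bp were merged over the 8 lists. Lists were then trimmed to the 65811 peaks of highest −log10 p, the length of the shortest. Presence calls require all libraries of one side and none of the other. Ranks, as −log2 rank, were fitted with limma 3.58.1 (R 4.3.3) over the 40694 regions listed in all 8 libraries, with 4 group means, no block and Benjamini-Hochberg adjustment over all these regions. A region listed in fewer libraries does not enter that fit. The model was tested on simulated data, where it missed most differences of log2 1 and found most of log2 2. There every region had the same spread, the median of these data. Real regions differed in spread, so the test gives no rate for a named region. A region short of the threshold may therefore still differ. Other steps used Python 3.11.15, pandas 2.3.3 and numpy 2.4.6.

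Gene bodies came from the RefSeq table of GRCm38.p6, without exons, so exon, intron and UTR positions were not analysed here. All 40 genes matched. Start windows (250 bases before to 50 after) were given for 32 of them, and H19, Kcnk9, Impact, Cdkn1c, Kcnq1, Trappc9, Sgce and Peg10 have none here. CpG were counted in these windows, and TGCCGC was searched on both strands.

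The members, gene lists and tests were chosen with earlier results of these data known. Named regions are those called by presence or limma, the start region and the strongest region of a gene, and up to 5 regions of largest rank difference per contrast, with up to 5 examples per direction within a condition. Same-numbered replicates did not deviate together in every pair of groups: the replicate differences of the 2 control groups correlated at 0.375, those of the other 5 pairs of groups at −0.19 to 0.0375, and the labels tie a number to no animal or day. Whether the replicate number pairs any of the libraries is therefore unknown, and the main fit used no block.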

Additional observations from a re-analysis of the deposited data

How the results depend on the processing

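Presence calls at imprinted genes are few, and each was lost when list length changed. With deposited lists in full, and likewise with a q limit of 0.01, the 4 against 4 counts were 0 higher and 2 lower for genotype and 0 lower for IL-2. With lists of 32905 peaks all 3 of these counts were 0. Ranking by fold gave 3 higher and 0 lower for genotype and 0 lower for IL-2. Requiring peaks to cover 50% of a region gave 2 lower for IL-2, and gene bodies alone gave 0. These counts have none over all regions beside them and describe single regions.

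Within conditions, full lists and the q limit both gave, for genotype without IL-2, 5 higher and 6 lower, and with IL-2 13 higher and 3 lower. Over all regions full lists moved the same way, to 2671 higher and 6835 lower without IL-2 and 6350 higher and 1633 lower with IL-2. For IL-2 they gave 1 higher and 9 lower in control and 4 higher and 3 lower in cDKO. Lists of 32905 peaks gave 2 higher and 4 lower for genotype without IL-2, 0 lower with IL-2, 0 higher for IL-2 in control, and 3 higher and 0 lower in cDKO. Ranking by fold gave 2 higher for IL-2 in control and 4 higher and 3 lower in cDKO. The 50% cover gave 6 lower in control and 3 higher in cDKO, and gene bodies alone 1 lower in control. Apart from the genotype counts of full lists, these counts have none over all regions beside them.

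Leaving out 1 library loosens the presence rule by construction. Counts for genotype then ranged from 1 to 4 higher and 1 to 2 lower (all regions 858 to 1082 and 1222 to 1617). For IL-2 they ranged from 0 to 2 higher and 1 to 2 lower (all regions 396 to 732 and 309 to 571). Without IL-2, genotype counts ranged from 13 to 20 higher and 2 to 9 lower (all regions 3702 to 7245 and 4021 to 8231). With IL-2 they ranged from 4 to 14 higher and 6 to 20 lower (all regions 3461 to 7611 and 3808 to 9792). In control, IL-2 counts ranged from 7 to 21 higher and 2 to 11 lower (all regions 2292 to 8427 and 2407 to 6943). In cDKO they ranged from 1 to 7 higher and 6 to 15 lower (all regions 2672 to 6614 and 2820 to 6475). In full lists the highest number of member regions was 220 in a control and 197 in a cDKO library.

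By limma, the member regions past the threshold for genotype, 2 in the report, were 0 with lists of 32905 peaks and with ranking by fold, 4 with regions in at least 6 libraries, 5 with an eBayes trend, and 0 to 2 with 1 library left out. With a replicate block, the replicate number as a term, it was 1, and no other limma count of member regions past the threshold changed. Presence calls take no block and could not respond to it. The trend also gave 1 region for genotype without IL-2. For IL-2 the count was 0 in all 13 alternatives. Over all regions, the genotype count past the threshold fell whenever 1 library was left out. Regions with ranks that did not overlap were, for genotype, 7 stronger (17.1%, beside 5.12% of all regions) and 1 weaker (2.44%, beside 4.52%) with 32905 peaks, and 5 stronger (7.14%, beside 4.72%) and 4 weaker (5.71%, beside 3.41%) with ranking by fold. With ranking by fold 2 were stronger with IL-2 (2.86%, beside 2.53% of all regions) and 3 weaker (4.29%, beside 2.16%). With 32905 peaks 1 was weaker with IL-2 (2.44%, beside 2.44%) and 0 were stronger (beside 2.37%). Without 1 library the genotype counts ranged from 13 to 16 stronger (all regions 7.67% to 9.58%) and 3 to 8 weaker (all regions 6.88% to 8.71%). The 8 regions weaker in cDKO, 9.88% beside 7.97% of all, came without the second control library with IL-2. For IL-2 the counts without 1 library ranged from 0 to 2 stronger (all regions 3.85% to 4.91%) and 2 to 4 weaker (all regions 3.9% to 5.71%). Ranking by fold reversed the IL-2 difference of 2 Inpp5f regions, to 0.007 at the start and 0.296 at the other, and the cause was not tested. The number of Gnas regions stayed apart between genotypes with 50% cover and without any 1 library, and overlapped with full lists, the q limit, 32905 peaks and ranking by fold.

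Depth is not given, the shortest list sets how weak a peak can be compared, and 2 libraries per group limit every statement within a condition.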
